A study of Mus musculus with 6 samples.

Results

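The 35 sterol genes described here make, sense, move, store and oxidise cholesterol, and they were taken by name from the 21911 protein-coding genes of the GENCODE vM21 mouse annotation. A gene was counted as marked in a list when an H3K4me3 peak lay within 1 kb of any of its annotated transcript starts, and its strongest such peak gave its strength percentile (the rank of the peak score among all peaks of that list, with 100 the strongest) and its width. By role, 16 members are enzymes of sterol synthesis, 8 regulate it, and 11 transport, store or oxidise sterols. The rule takes genes by name, and it was set with earlier results of these data known. In Q111SST the strongest peaks of the 34 marked members overlapped an annotated exon of the gene in 34 cases, a UTR in 33, coding sequence in 21 and an intron in 28, and 26 reached upstream of the annotated gene.

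H3K4me3, the trimethylated lysine 4 of histone H3 that sits around the starts of active and poised genes, was mapped by ChIP-Seq in STHdh cells, conditionally immortalised mouse striatal progenitors used as a cell model of Huntington's disease. All 6 conditions were kept in serum-free medium for 24 h, and each gave 1 peak list. Q7SST is the wild-type line (STHdhQ7) with DMSO vehicle, and Q111SST is the line homozygous for a knock-in of mutant huntingtin (STHdhQ111) with the same vehicle. The remaining 4 lists are STHdhQ111 cells given cyproheptadine, loxapine, diacylglycerol kinase inhibitor II (DKI) or meclizine, each at 10 uM. STHdhQ7 and STHdhQ111 are separate C57BL/6 lines, so that genotype and line cannot be told apart. With 1 list a condition there is no replicate spread, no difference below was tested, and all 5 comparisons share the Q111SST list.

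Cholesterol is built from acetyl-CoA through mevalonate, isoprenoid units, squalene and lanosterol. When sterols in the endoplasmic reticulum run low, Scap carries the SREBP precursors (from Srebf1 and Srebf2) to the Golgi, where they are cleaved, and the released factors switch on the synthesis genes, often together with NF-Y and Sp1. Insig proteins hold Scap back when sterols are plentiful, while oxysterols activate the liver X receptors (Nr1h2 and Nr1h3), which raise cholesterol efflux. Neurons turn over cholesterol by oxidising it, and huntingtin mutation has long been studied in connection with brain cholesterol.

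The promoter sequences of 4 synthesis genes are shown for their NF-Y boxes. They are the upstream part of the RefSeq promoter (GRCm38.p6) that lies outside annotated exons, 5′ to 3′ on the gene's strand. Capitals mark the NF-Y box, CCAAT on either strand, and in Hmgcs1 also the SREBP site, TCACNCCAC. Hmgcs1 is at chr13:119690151-119690350 on the + strand, Mvk at chr5:114444069-114444268 on the + strand, Mvd at chr8:122443423-122443622 on the - strand, and Hsd17b7 at chr1:169969242-169969408 on the - strand.
Hmgcs1: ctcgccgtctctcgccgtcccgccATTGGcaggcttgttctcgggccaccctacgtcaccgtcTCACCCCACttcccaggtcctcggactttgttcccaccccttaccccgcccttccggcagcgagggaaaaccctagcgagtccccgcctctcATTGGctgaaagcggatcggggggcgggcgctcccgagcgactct
Mvk: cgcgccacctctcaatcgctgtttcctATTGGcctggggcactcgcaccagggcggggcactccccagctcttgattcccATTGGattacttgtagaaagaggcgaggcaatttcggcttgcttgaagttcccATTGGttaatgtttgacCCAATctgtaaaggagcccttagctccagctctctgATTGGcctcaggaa
Mvd: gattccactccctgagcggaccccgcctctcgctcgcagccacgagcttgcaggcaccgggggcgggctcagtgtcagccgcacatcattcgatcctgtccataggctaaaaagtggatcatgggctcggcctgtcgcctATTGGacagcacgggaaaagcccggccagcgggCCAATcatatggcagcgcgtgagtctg
Hsd17b7: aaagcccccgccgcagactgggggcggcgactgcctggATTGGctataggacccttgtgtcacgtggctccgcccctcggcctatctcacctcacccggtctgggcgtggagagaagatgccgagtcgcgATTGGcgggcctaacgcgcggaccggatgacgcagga

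Next come 3 transport and oxidation genes whose peaks were among the weakest or moved most. Capitals mark the E-box, CACGTG, and the TATA box, TATAAA, in Abca1 (chr4:53159896-53160095, - strand), the Sp1 box, GGGCGG, in Cyp46a1 (chr12:108334116-108334315, + strand) and TATA boxes on both strands that overlap each other in Apoe (chr7:19698622-19698821, - strand). Only the motifs named for a gene are in capitals, so the capitals do not compare the genes. In small letters, Cyp46a1 also holds an NF-Y box and Hsd17b7 an E-box. The Sp1 box likewise stands in small letters in each synthesis stretch above and in Abca1.
Abca1: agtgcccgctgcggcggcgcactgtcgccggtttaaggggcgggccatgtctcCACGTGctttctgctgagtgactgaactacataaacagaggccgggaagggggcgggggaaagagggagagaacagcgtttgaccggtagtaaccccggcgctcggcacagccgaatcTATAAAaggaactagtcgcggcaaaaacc
Cyp46a1: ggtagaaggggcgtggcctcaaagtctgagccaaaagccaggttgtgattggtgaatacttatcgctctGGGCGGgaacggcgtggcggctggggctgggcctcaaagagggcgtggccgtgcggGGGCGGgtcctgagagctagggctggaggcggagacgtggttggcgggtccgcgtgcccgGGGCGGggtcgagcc
Apoe: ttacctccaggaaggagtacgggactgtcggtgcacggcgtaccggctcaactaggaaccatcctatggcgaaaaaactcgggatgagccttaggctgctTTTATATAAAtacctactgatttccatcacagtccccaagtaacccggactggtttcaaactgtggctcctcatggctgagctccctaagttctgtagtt

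The motif counts were made in the whole promoter window, from 250 bases before to 50 after the RefSeq start, which was given for 29 of the 35 members (no entry for Fdps, Fdft1, Sqle, Npc1, Abcg1 and Stard4). Both strands were searched, and matches of different motifs could overlap. An NF-Y box was present in 10 of 13 synthesis promoters, 3 of 8 regulation promoters and 5 of 8 transport promoters, against 38.3% of all 16522 coding promoters. It was also in 14 of the 17 promoters given for 25 other genes of sterol and lipid metabolism. At least 2 NF-Y boxes stood in 6 of the 13 synthesis promoters, 7 of those 17 and 13.0% of all, and Mvk had 5. The Sp1 box was in 12 of 13 synthesis promoters, 6 of 8 regulation promoters and 6 of 8 transport promoters, against 48.9% of all promoters and 67.5% of those of coding genes marked in Q111SST. The SREBP site was matched in 1 member, Hmgcs1, with its first base 137 bases before the start, and in 1.17% of all promoters. The TATA box was in 0 of 13 synthesis promoters, 2 of 8 regulation promoters and 4 of 8 transport promoters, the latter those of Abca1, Ch25h, Lipa and Apoe, against 12.6% of all promoters and 6.41% of those marked in Q111SST. The nuclear receptor half-site AGGTCA stood in 3 of the 29 promoters (13.9% of all), and the E-box in 5 of 29 (8.09% of all). A match describes these letters in this window and is not evidence of binding.

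Nearly the whole set carried H3K4me3. All 35 members were marked in Q7SST and 34 of 35 in each of the other 5 lists. The background was 59.9% of coding genes in Q7SST, 58.4% in Q111SST, 55.4% under cyproheptadine, 58.1% under loxapine, 55.8% under DKI and 58.6% under meclizine. Of the 25 other genes of sterol and lipid metabolism counted beside them, 23 were marked in each list. The exception among the members was Apoe, which encodes the main lipid carrier of the brain and is made chiefly by astrocytes there. Apoe had a single peak of 257 bp in Q7SST (chr7:19698437-19698693, mm10) with a score of 24, at percentile 16.9, and no peak within 1 kb of its starts in any STHdhQ111 list. Of the 9121 coding genes unmarked in Q111SST, 8.64% were likewise marked in Q7SST. The lists have a lowest score of 10, so a weaker signal at Apoe would not appear in them.

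The lists held between 30758 peaks (DKI) and 45564 peaks (loxapine), and the median promoter peak of all marked coding genes stood at percentile 76.3 under DKI and between 79.5 and 83.0 in the other 5 lists. The submitters' lists carry no read counts, so the depth behind a score is unknown. Of 5 neural progenitor markers, 2 to 4 were marked in each list, and of 11 striatal markers 5 to 9, with Drd1 unmarked in all 6 lists. Of 9 markers of other cell types, 1 or 2 were marked.

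**Figure D1:**
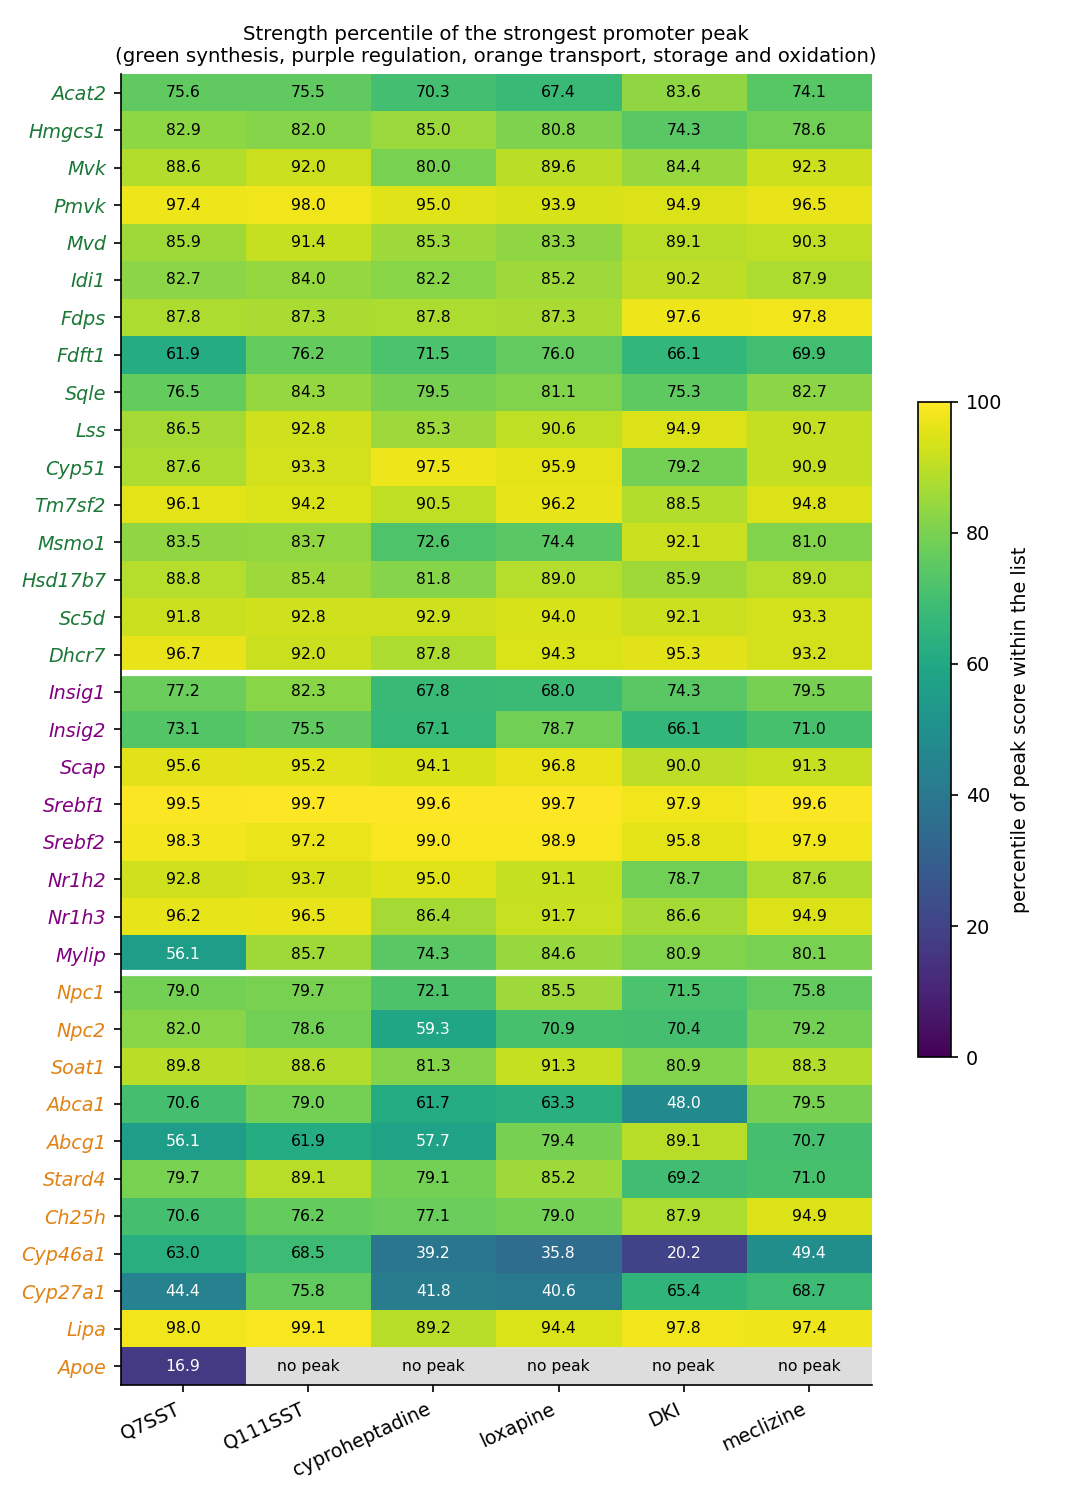
Strength percentile (colour and printed value, 0 to 100) of the strongest H3K4me3 peak within 1 kb of a start of each of the 35 members (rows, by role) in the 6 lists (columns). Srebf1 stands at or above 97.9 in every list, Cyp46a1 runs from 68.5 in Q111SST down to 20.2 under DKI, and Apoe has a peak in Q7SST alone.

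The roles differed in strength and in width. The median synthesis gene stood at percentile 87.0 in Q7SST, 89.3 in Q111SST, 85.1 under cyproheptadine, 88.1 under loxapine, 88.8 under DKI and 90.5 under meclizine. The 8 regulators had medians of 94.2, 94.4, 90.3, 91.4, 83.7 and 89.5 in the same order of lists. The transport, storage and oxidation genes had medians of 70.6, 78.8, 66.9, 79.2, 71.0 and 77.5. Thus the synthesis median lay above the median of all marked coding genes in each list, the transport median lay below it, and the regulators were above the synthesis genes in 4 lists and below them under DKI and meclizine. Against regulators and transport genes pooled, the synthesis median was higher by 7.99 points in Q7SST, 5.36 in Q111SST, 9.47 under cyproheptadine, 3.25 under loxapine, 9.00 under DKI and 10.7 under meclizine.

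The synthesis genes had the wider peaks. Their median width was 2391 bp in Q7SST, 2475.5 bp in Q111SST, 2383 bp under cyproheptadine, 2483 bp under loxapine, 1760.5 bp under DKI and 2268.5 bp under meclizine. The pooled median of the other roles was 1685, 1865.5, 1619, 1817.5, 1524 and 1500.5 bp, and that of all marked coding genes was 1709, 1795, 1546, 1720, 1461 and 1672 bp. The ratio of synthesis to other roles was lowest under DKI, at 1.16, and between 1.33 and 1.51 in the other 5 lists. In Q111SST 12 of 16 synthesis peaks were wider than 2000 bp, against 4 of 8 regulation peaks, 2 of 10 transport peaks and 38.7% of marked coding genes. With DKI it was 5 of 16 synthesis peaks, 3 of 8 regulation peaks, 1 of 10 transport peaks and 19.8% of marked coding genes.

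**Figure D2:**
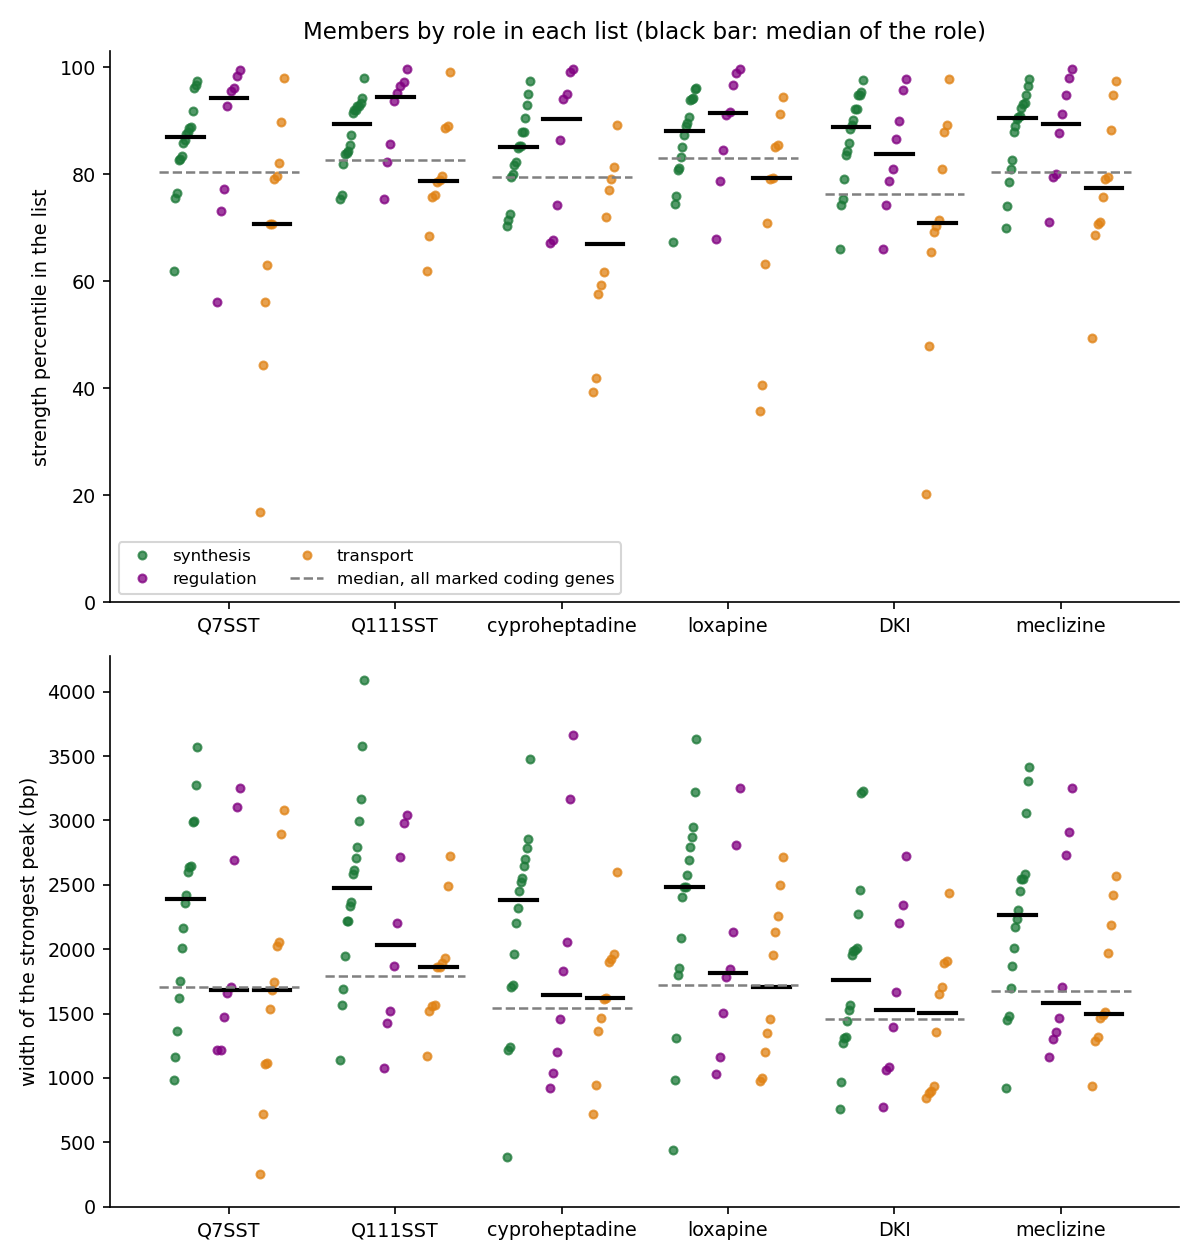
Strength percentile (top) and width in bp (bottom) of the strongest promoter peak of each member, by role and list, with the role's median (black bar) and the median of all marked coding genes (grey dashes). Synthesis medians lie above the grey line in every list on both axes, and the synthesis width median drops to 1760.5 bp under DKI.

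The pathway is described next in the order of its steps. Acat2 makes acetoacetyl-CoA at its head and had, with Insig2, the lowest percentile of any member but Abcg1 and Cyp46a1 in Q111SST, 75.5. Its values were 75.6 in Q7SST, 70.3 under cyproheptadine, 67.4 under loxapine, 83.6 under DKI and 74.1 under meclizine. Hmgcs1, HMG-CoA synthase, forms the precursor of mevalonate. Its strength was 82.9 in Q7SST, 82.0 in Q111SST, 85.0 under cyproheptadine, 80.8 under loxapine, 74.3 under DKI and 78.6 under meclizine, so that no list stood 10 points from Q111SST.

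The shape of the mark at Hmgcs1 divided the lists. Q111SST had 1 peak of 4089 bp across the start (chr13:119689541-119693629), the widest of any member in that list, and DKI and meclizine also had 1 peak across it, of 3230 and 3306 bp. In Q7SST the start itself was uncovered, with a peak from 1458 to 471 bp before it and another from 515 to 3093 bp after it. With cyproheptadine the peaks ran from 881 to 493 bp before the start and from 447 to 3072 bp after it, and under loxapine from 929 to 493 bp before and from 558 to 3395 bp after. The promoter sequence printed above, with its SREBP site and NF-Y boxes, lies in this uncovered stretch in those 3 lists and inside the peak in the other 3. Because strength and width were read from the stronger upstream peak, the width of Hmgcs1 was 988, 389 and 437 bp in Q7SST, cyproheptadine and loxapine. With peaks within 1 kb of each other merged, the Hmgcs1 ratio to Q111SST was 1.11 in Q7SST, the opposite direction, 0.967 under cyproheptadine and 0.107 under loxapine, where the gap was over 1 kb. By base pairs covered within 5 kb it was 0.872, 0.737 and 0.801 in that order. A start without a peak over it was not rare: of all marked coding genes it was seen in 13.7% in Q7SST, 13.6% in Q111SST, 21.2% under cyproheptadine, 19.3% under loxapine, 18.2% under DKI and 12.4% under meclizine. The start was the one nearest the centre of the Q111SST peak, so the Q111SST share is not like for like with the others.

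Mvk and Pmvk phosphorylate mevalonate and Mvd decarboxylates it. Pmvk was the strongest synthesis gene in Q111SST, at 98.0, and stayed between 93.9 and 98.0 in all lists. Mvk was at 92.0 in Q111SST and at 80.0 under cyproheptadine. The peak of Mvk also covers the start of Mmab on the other strand, 277 bp away, and the mark of the pair cannot be divided between them. Idi1, which interconverts the 5-carbon isoprenoids, stayed between 82.2 and 90.2.

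Fdps, farnesyl diphosphate synthase, stood apart. Its percentile was 87.8 in Q7SST, 87.3 in Q111SST, 87.8 under cyproheptadine, 87.3 under loxapine, 97.6 under DKI and 97.8 under meclizine. The first 4 values lie within 1 point of each other, and DKI and meclizine are each more than 10 points above Q111SST. Fdps shares this with Ch25h alone among the members, and 1.07% of coding genes were up by 10 points or more in both lists. With every list cut to its 30758 strongest peaks (lists of equal size), Abcg1 joined them, up by 39.2 points under DKI and 13.2 points under meclizine. At the same time the Fdps peak (chr3:89099784-89102575 in Q111SST) was 1319 bp wide under DKI and between 2545 and 2792 bp in the other 5 lists. The start of Gm43738 on the same strand lies within 1 kb of a Fdps start.

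The steps of squalene synthesis and its closure to lanosterol follow. Fdft1, squalene synthase, was at 61.9 in Q7SST, 76.2 in Q111SST, 71.5 under cyproheptadine, 76.0 under loxapine, 66.1 under DKI and 69.9 under meclizine. Sqle, the epoxidase that follows, had the widest promoter peak of any member in Q7SST, loxapine and meclizine and stayed between 3211 and 3636 bp in all lists. The strength of Sqle was between 75.4 and 84.3. Lss, which closes the ring, was between 85.3 and 94.9.

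Of the enzymes from lanosterol to cholesterol, Cyp51, the 14-alpha-demethylase, had a range of 18.3 points. It was at 87.6 in Q7SST, 93.3 in Q111SST, 97.5 under cyproheptadine, 95.9 under loxapine, 79.2 under DKI and 90.9 under meclizine, and DKI was the only list more than 10 points below Q111SST. The RefSeq start of Cyp51 lies 1316 bp before the start used here. Unlike the peaks of the other lists, those under cyproheptadine and loxapine did not reach it. Msmo1, a C4-methyl oxidase, was highest under DKI and lowest under cyproheptadine, the lists where Cyp51 was lowest and highest. Its values were 83.5, 83.7, 72.6, 74.4, 92.1 and 81.0 in the same order of lists. Sc5d was the steadiest synthesis gene, between 91.8 and 94.0. Tm7sf2 had the narrowest synthesis peaks in Q111SST, DKI and meclizine (1138, 758 and 921 bp). Dhcr7, which carries out the last step of one branch, had a second marked group of starts 5752 bp into the gene at percentiles of 84.1, 89.6, 83.9, 85.8, 95.2 and 91.3, and its first marked start lies 296 bp from that of Nadsyn1 on the other strand. Hsd17b7 and Idi1 have a noncoding or unclassified transcript start on the opposite strand within 1 kb.

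The SREBP genes were among the strongest and steadiest members. Srebf1 had a percentile of 99.5 in Q7SST, 99.7 in Q111SST, 99.6 under cyproheptadine, 99.7 under loxapine, 97.9 under DKI and 99.6 under meclizine, the highest of all members in each of the 6 lists. A second group of Srebf1 starts 10139 bp downstream was weaker and less steady, at 44.4, 71.5, 56.0, 68.0, 29.5 and 59.9. Srebf2 stayed between 95.8 and 99.0. Its peak ran unbroken from 1490 bp before to 1229 bp after the start in Q111SST (chr15:82146523-82149242) and was split in the other 5 lists into a small upstream peak of 204 to 415 bp and a main peak of 1063 to 1786 bp. The RefSeq start lies 744 bp before the start used here and fell uncovered between these peaks in those 5 lists. The width ratio to Q111SST at Srebf2, between 0.391 and 0.657, was read from the main peak. With peaks within 1 kb merged it was 0.611 in Q7SST, 0.443 under cyproheptadine, 0.657 under loxapine, 0.852 under DKI and 0.974 under meclizine. By base pairs covered within 5 kb it was 0.688, 0.518, 0.75, 0.543 and 0.644 in that order. Scap was between 90.0 and 96.8, with the narrowest peak of any member in Q111SST (1078 bp).

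**Figure D3:**
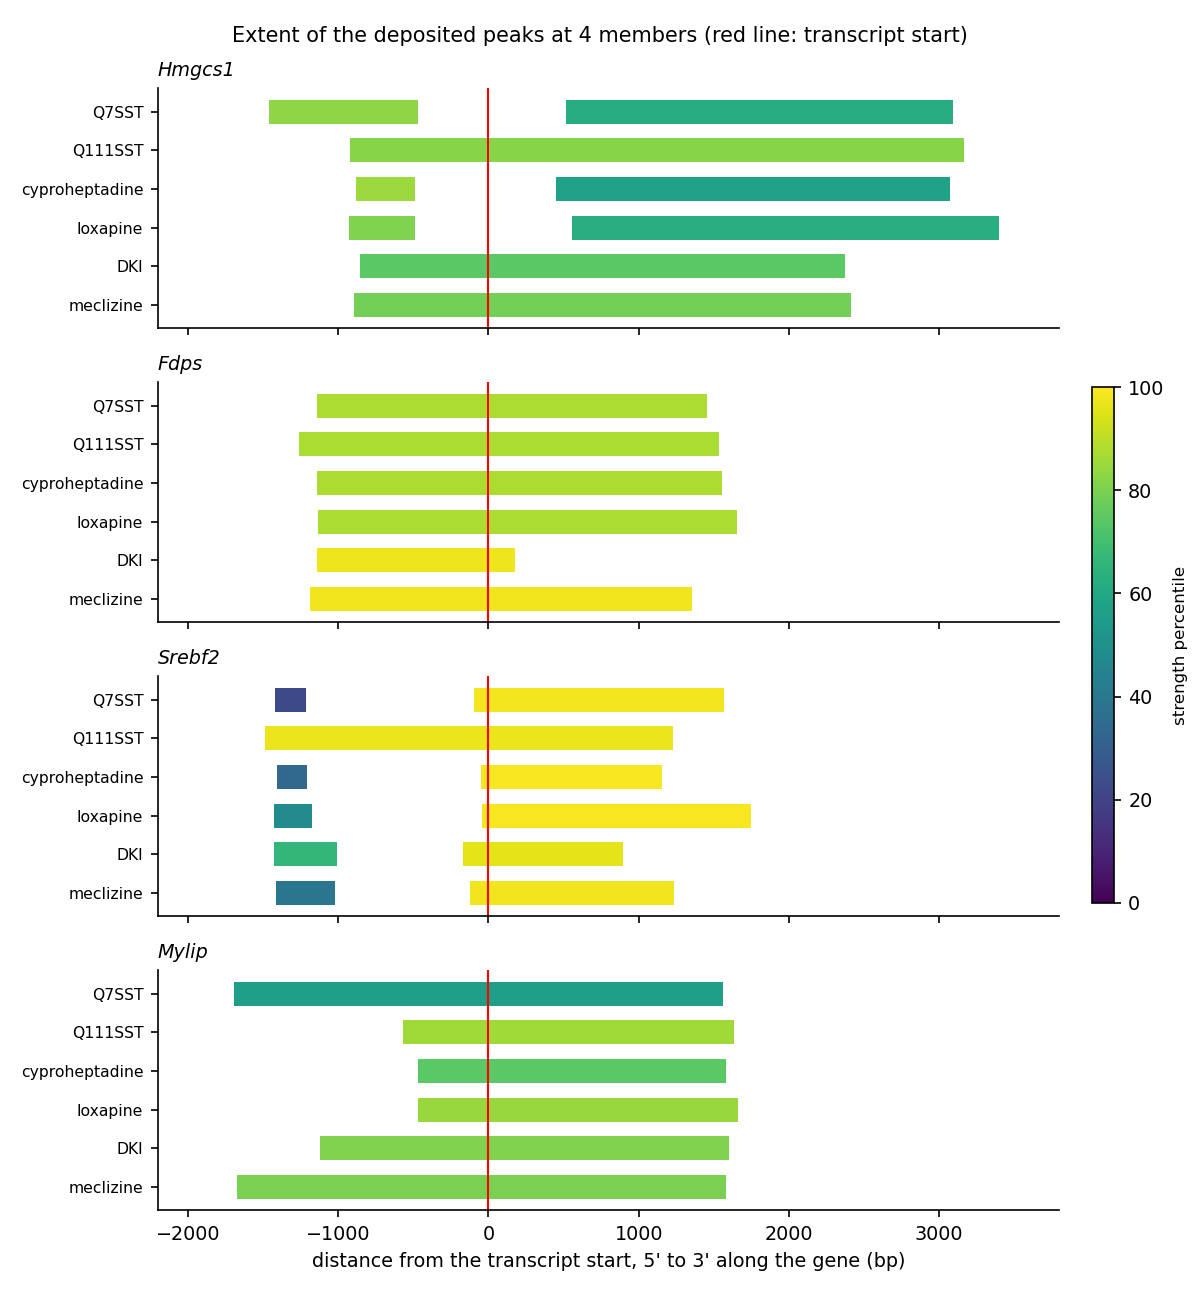
Extent of every deposited peak at Hmgcs1, Fdps, Srebf2 and Mylip in the 6 lists, as distance in bp from the annotated start used (red line, 0), with colour for strength percentile. That start is the one nearest the centre of the strongest Q111SST peak. At Srebf2 the RefSeq start lies 744 bp to the left of the red line. The Hmgcs1 start is uncovered in Q7SST, cyproheptadine and loxapine, and Srebf2 is unbroken in Q111SST alone. Under DKI the Fdps peak ends 174 bp past the start used, which is the most downstream of its marked group of starts.

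The Insig genes, the sterol-sensing brake on Scap, had broad but weaker peaks. Insig1 was at 77.2 in Q7SST, 82.3 in Q111SST, 67.8 under cyproheptadine, 68.0 under loxapine, 74.3 under DKI and 79.5 under meclizine, more than 10 points below Q111SST under cyproheptadine and loxapine. Insig2 was between 66.1 and 78.7. Both are among the wider members, Insig1 from 2344 to 3666 bp and Insig2 from 2201 to 3169 bp, and each has a noncoding or unclassified start on the other strand within 1 kb (Gm26608 and Gm37174).

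The liver X receptors and their target Mylip, a ubiquitin ligase that promotes the breakdown of lipoprotein receptors, are next. Their ranges over the lists were 16.3 points at Nr1h2, 10.1 at Nr1h3 and 29.6 at Mylip. Nr1h2 was at 93.7 in Q111SST and 78.7 under DKI, and between 87.6 and 95.0 elsewhere. Nr1h3 stood between 86.4 and 96.5, but it was marked only at a start 94 bp from that of Acp2 on the other strand, and its RefSeq start 7718 bp downstream had no peak in any list. Mylip was at 56.1 in Q7SST, 85.7 in Q111SST, 74.3 under cyproheptadine, 84.6 under loxapine, 80.9 under DKI and 80.1 under meclizine, so that the wild-type line stood 18 points or more below every mutant list. Its peak in Q7SST was the weakest yet the widest, 3254 bp, reaching 1693 bp upstream and covering the other annotated start, which lies 1185 bp before the one used here. Of the other lists only meclizine, with a peak of 3252 bp, covered it too.

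The transport, storage and oxidation genes held the widest spread. The range over the 6 lists had a median of 23.5 points in the 10 of them marked throughout, against 9.25 in the synthesis genes, 11.3 in the regulators and 14.4 in all 11713 coding genes marked in 6 lists. A range of at least 10 points was seen in 9 of those 10, in 7 of 16 synthesis genes, in 5 of 8 regulators and in 69.5% of coding genes.

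Cyp46a1 makes 24-hydroxycholesterol, the form in which neurons export cholesterol. It was at 63.0 in Q7SST, 68.5 in Q111SST, 39.2 under cyproheptadine, 35.8 under loxapine, 20.2 under DKI and 49.4 under meclizine. Both vehicle lists were above all 4 compound lists, and each compound was at least 19.1 points below Q111SST. With cyproheptadine the peak ended 373 bp before the start and left it uncovered.

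Cyp27a1, the mitochondrial sterol 27-hydroxylase, had another order, 44.4 in Q7SST, 75.8 in Q111SST, 41.8 under cyproheptadine, 40.6 under loxapine, 65.4 under DKI and 68.7 under meclizine. Here the wild-type line stood within 4 points of cyproheptadine and loxapine. Ch25h, which makes the immune oxysterol 25-hydroxycholesterol, stood at 70.6, 76.2, 77.1, 79.0, 87.9 and 94.9 in the same order. It was below Q111SST in Q7SST, as Cyp27a1 was, and above it in the 4 compound lists. Its peak was 1564 bp wide in Q111SST and between 938 and 973 bp in the 4 compound lists, where its percentile was higher, and it lies 331 bp from the start of the noncoding Gm26902 on the other strand.

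The efflux transporters did not move together. Abca1, which loads cholesterol onto apolipoproteins, was at 70.6 in Q7SST, 79.0 in Q111SST, 61.7 under cyproheptadine, 63.3 under loxapine, 48.0 under DKI and 79.5 under meclizine. Abcg1, its partner that loads mature particles, was at 56.1, 61.9, 57.7, 79.4, 89.1 and 70.7. With DKI, Abca1 was thus 31.0 points below Q111SST and Abcg1 27.2 points above it, the largest positive difference of any member. The Abcg1 peak lay just downstream of its start, from 609 to 1506 bp under DKI, and covered that start only under meclizine.

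Of the remaining members, Lipa, the lysosomal acid lipase that frees cholesterol from its esters, was the strongest transport gene, at 99.1 in Q111SST and 89.2 under cyproheptadine. Stard4, a cytosolic sterol carrier and SREBP target, was at 79.7, 89.1, 79.1, 85.2, 69.2 and 71.0, lowest under DKI and meclizine. Npc2, which hands cholesterol to Npc1 in the lysosome, was at 78.6 in Q111SST and 59.3 under cyproheptadine, and a start of Isca2 on the other strand lies 783 bp away. Npc1 was between 71.5 and 85.5, and Soat1, which esterifies cholesterol for storage, between 80.9 and 91.3. Weak second groups of marked starts more than 10 kb into the gene were found in Fdft1 (12757 bp, all 6 lists), Npc1 (12239 bp, all but Q7SST), Npc2 (10374 bp, 3 lists) and Lss (10200 bp, loxapine only).

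**Figure D4:**
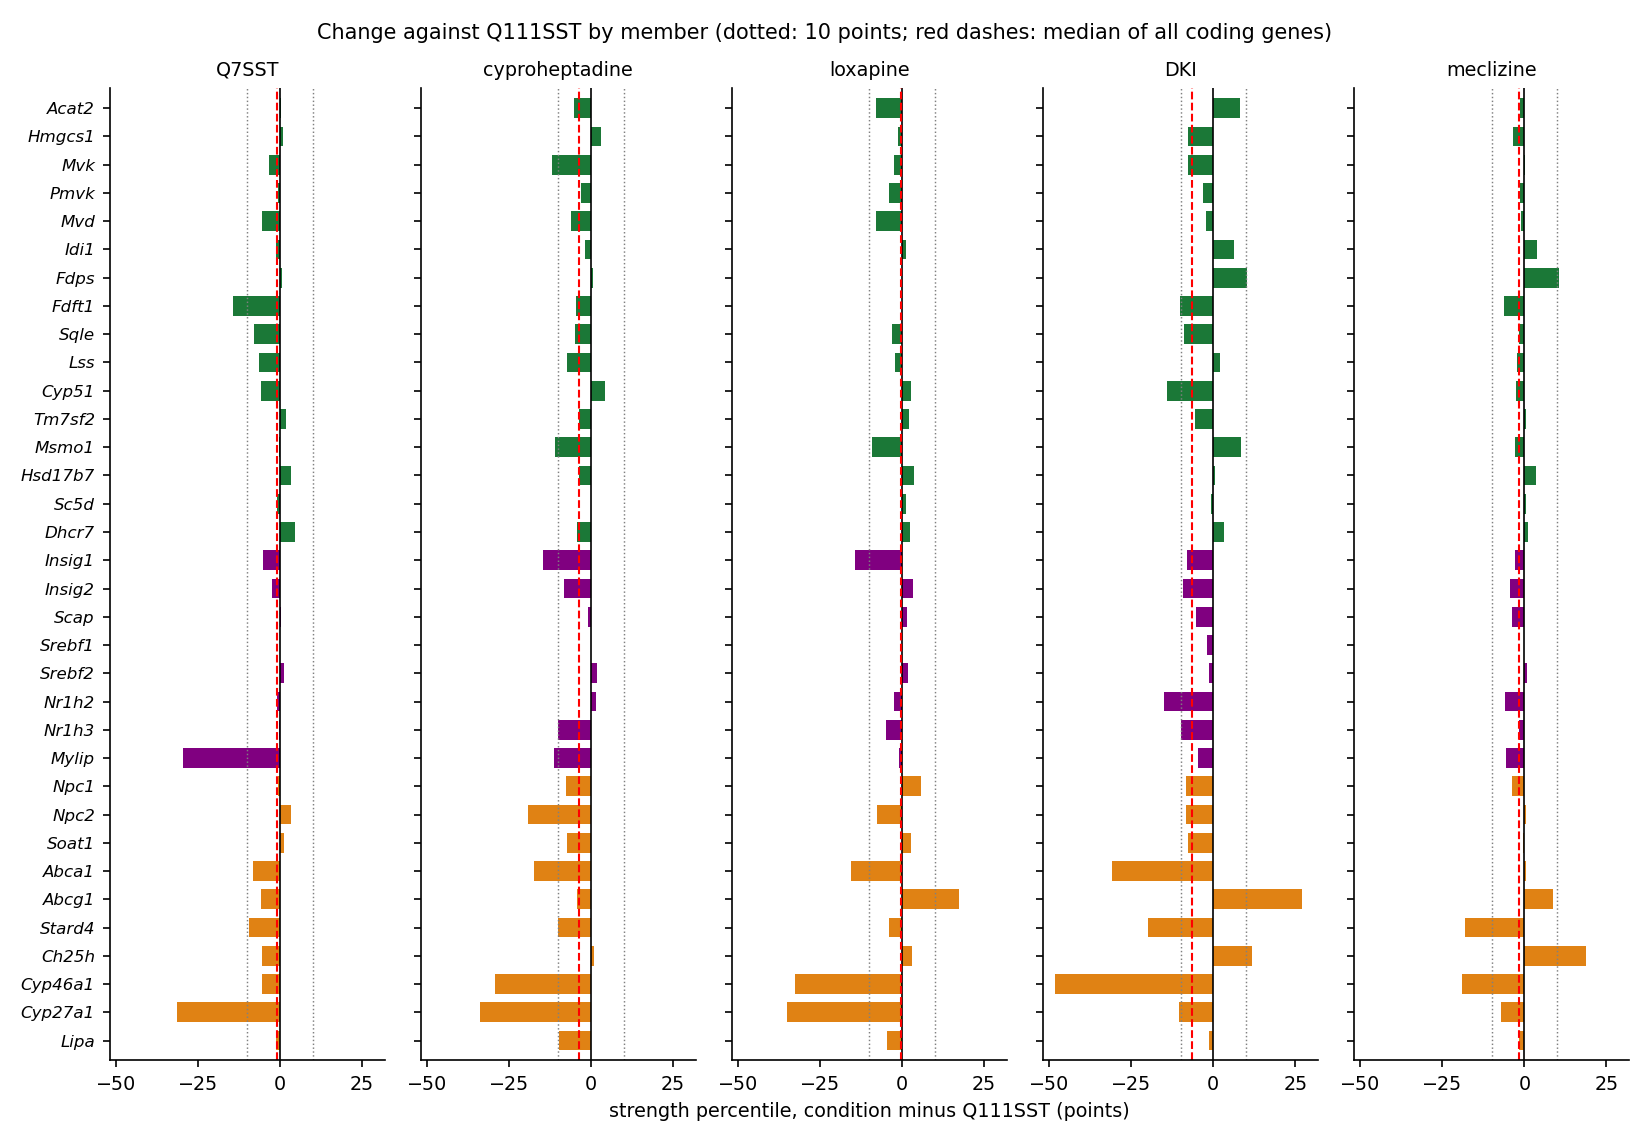
Difference in strength percentile from Q111SST (points) for the 34 members marked in all 6 lists, by condition and coloured by role (green synthesis, purple regulation, orange transport), with dotted lines at 10 points and a red dashed line at the median of all coding genes. The longest bars belong to transport genes, from 48.3 points down for Cyp46a1 to 27.2 points up for Abcg1, both under DKI.

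Counts of members that stood at least 10 points from Q111SST were close to or below the share of coding genes in most comparisons. In the wild-type line, 0 members were up and 3 of 34 down (Fdft1, Mylip and Cyp27a1), against 8.85% of coding genes up and 13.0% down. In lists of equal size 0 were up and 4 down there, with Stard4 (-11.0 points) added, against 12.1% and 14.4%. With cyproheptadine 0 were up and 10 down, against 3.48% and 25.9%. The 10 were 2 synthesis genes (Mvk and Msmo1), 3 regulators (Insig1, Nr1h3 and Mylip) and 5 transport genes (Npc2, Abca1, Stard4, Cyp46a1 and Cyp27a1). In lists of equal size 0 were up and 8 down under cyproheptadine, against 10.1% and 17.2% of coding genes, with Msmo1, Mylip and Stard4 no longer among them and Lipa (-10.7 points) added. With loxapine 1 was up (Abcg1) and 4 were down (Insig1, Abca1, Cyp46a1 and Cyp27a1), against 7.1% and 9.41%. In lists of equal size 1 was up and 8 were down under loxapine, against 6.9% and 22.3% of coding genes, and the 8 included 3 synthesis genes, Acat2 (-16.1 points), Mvd (-13.4 points) and Msmo1 (-16.5 points). The 4 named falls were larger there, Insig1 going from -14.3 to -24.2 points, Abca1 from -15.7 to -26.8, Cyp46a1 from -32.7 to -53.7 and Cyp27a1 from -35.2 to -56.2. Cyp46a1 under DKI went from -48.3 to -38.4 points, so that its order between both compounds turned.

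With DKI 3 members were up (Fdps, Abcg1 and Ch25h) and 7 down (Fdft1, Cyp51, Nr1h2, Abca1, Stard4, Cyp46a1 and Cyp27a1), against 3.55% and 38.8%. In lists of equal size 6 were up and 5 down, against 11.3% and 21.5% of coding genes, and Acat2, Idi1 and Msmo1 joined those that were up. The median change under DKI was -6.57 points over all coding genes, -1.48 in synthesis genes, -6.63 in regulators and -8.22 in transport genes. In lists of equal size these medians were -1.83 over all coding genes, 1.00 in synthesis genes, -2.10 in regulators and -2.35 in transport genes, so that the sign in synthesis genes depended on the list size. With meclizine 2 were up (Fdps and Ch25h) and 2 down (Stard4 and Cyp46a1), against 4.18% and 10.0%, with a median of -1.54 points both in the members and in all coding genes. At equal list size 3 were up and 2 down under meclizine, against 6.59% and 11.3%. The falls of Fdft1 and Cyp27a1 under DKI became changes of -2.63 and -2.85 points when the lists were cut to equal size.

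Peaks 1.5-fold wider than in Q111SST were found for 0 of 34 members in any comparison, where the background was 5.82% in Q7SST, 0.978% under cyproheptadine, 2.52% under loxapine, 1.32% under DKI and 3.78% under meclizine. Peaks 1.5-fold narrower numbered 4 in Q7SST (6.89% of coding genes), 4 under cyproheptadine (16.0%), 4 under loxapine (8.51%), 12 under DKI (18.7%) and 2 under meclizine (4.63%). The 12 under DKI comprised 7 of 16 synthesis genes (Acat2, Idi1, Fdps, Fdft1, Lss, Tm7sf2 and Dhcr7), 1 regulator (Srebf2) and 4 transport genes (Abcg1, Ch25h, Cyp27a1 and Lipa). Hmgcs1 and Srebf2 counted as narrower where their peak was split. By base pairs covered within 5 kb, members past 1.5-fold either way numbered 2, 3, 2, 12 and 2 in the same order of lists. The shares of coding genes were 9.72%, 14.7%, 7.02%, 18.3% and 5.65%.

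The peaks were also measured on the gene body side of the start. This measure, the distance from the start to the downstream end of the peaks, was chosen after the values were seen. With DKI the edge was at least 500 bp shorter than in Q111SST in 10 of 34 members and 8 of 16 synthesis genes, against 13.0% of coding genes. At a limit of 1000 bp it was 2 of 16 synthesis genes against 3.15%, and at 250 bp 11 of 16 against 38.6%. The 8 were Fdps (1357 bp shorter), Fdft1 (1154 bp), Idi1 (860 bp), Lss (837 bp), Hmgcs1 (794 bp), Acat2 (720 bp), Hsd17b7 (583 bp) and Cyp51 (582 bp), and the other members were Stard4 (795 bp) and Lipa (569 bp). No regulator was among them. The median change was -462 bp in synthesis genes and -193 bp in all coding genes, while on the upstream side it was -114.5 and -62.0 bp. Of the 7 synthesis peaks that were 1.5-fold narrower, that of Dhcr7 alone changed more upstream (-508 bp) than downstream (-90 bp).

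A peak that reaches far past the start has more length to lose there, so the comparison was repeated among genes that reached at least 1000 bp past the start in Q111SST. Of these, 7 of 11 synthesis genes and 2 of 13 other members were at least 500 bp shorter under DKI, against 18.1% of coding genes. In the other comparisons the count of all 16 synthesis genes was 0 in Q7SST (6.31% of coding genes), 0 under cyproheptadine (7.1%), 0 under loxapine (2.83%) and 1, Hmgcs1, under meclizine (4.08%). By any distance, 90.9% of coding genes ended nearer the start under DKI than in Q111SST, as did all 16 synthesis genes, all 8 regulators and 7 of 10 transport genes. The strength of the same 8 genes moved both ways, Fdps up by 10.3 points and Acat2 up by 8.10 points, Cyp51 down by 14.2 points and Fdft1 down by 10.1 points. The DKI list was also the shortest, and the part of list size or depth in these edges was not tested.

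**Figure D5:**
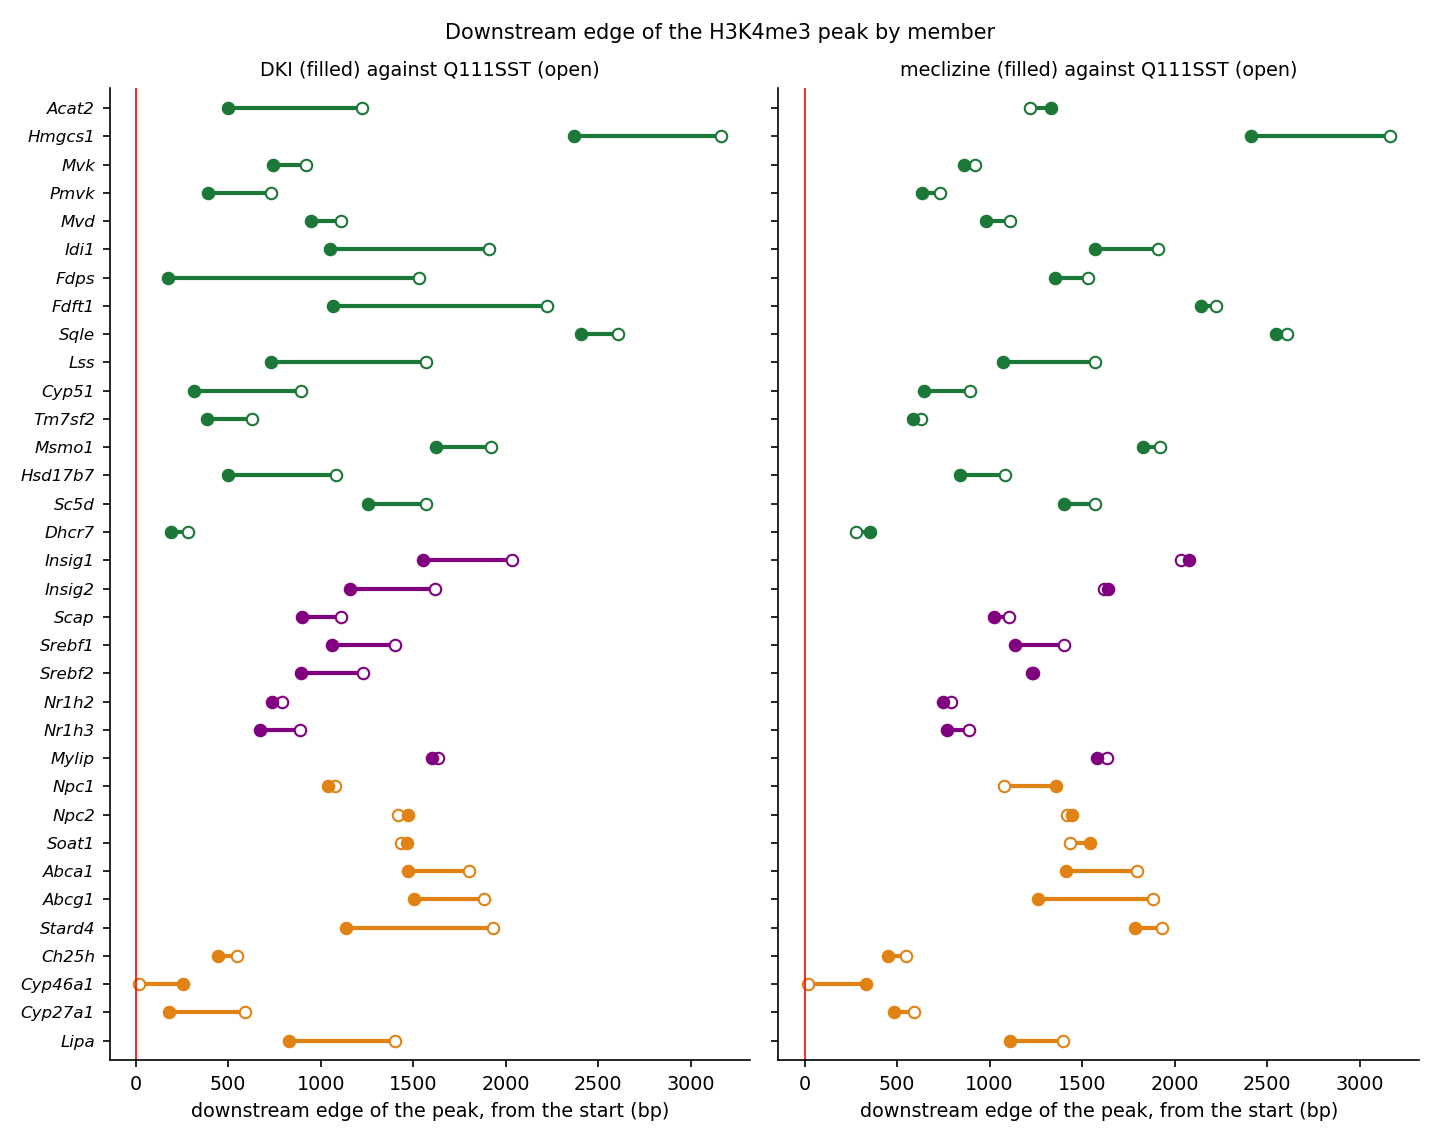
Downstream edge of the peaks within 1 kb of the start, in bp from the start, for the 34 members in Q111SST (open) and in DKI or meclizine (filled), coloured by role (green synthesis, purple regulation, orange transport). With DKI all 16 synthesis genes and all 8 regulators lie to the left of their Q111SST values, Fdps by 1357 bp, while meclizine values lie close to Q111SST for most members.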

How the data were processed

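H3K4me3 ChIP-Seq libraries of 6 conditions were made from MNase-digested, formaldehyde-fixed chromatin and sequenced as single-end reads. Per the submitters' processing notes, Trimmomatic 0.36, Bowtie2, SAMtools 1.3 and MACS2 were used with the mm10 build. Their settings, thresholds, input control and whether repeat cultures were pooled are not given in the sources used here. The deposited files hold, for each condition, 1 list of peaks with position and a score (whole numbers from 10 upward, higher for stronger peaks), as the authors gave them. They hold no read counts, so depth is unknown and no interval could be set.

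Peaks were assigned to protein-coding genes of GENCODE vM21 (GRCm38, the same build) when within 1 kb of any transcript start, chromosome M left out. Scores were turned into percentiles within each list, since the range of scores differs between lists. Edges were measured from the annotated start nearest the centre of the strongest Q111SST peak. Promoter sequences came from a RefSeq table (GRCm38.p6). No test was run. A change was described as 10 points or 1.5-fold, beside the share of all coding genes marked in both lists. Named genes were those unmarked in a list, those past either limit, the 5 highest and 5 lowest in strength, the 3 widest and 3 narrowest, and those with a neighbouring start or several marked starts. The remaining members were added for the order of the pathway. Members, lists of genes and limits were chosen with earlier results of these data known. Alternatives were a score threshold, equal-size lists, merged peaks, windows of 0 and 5 kb, starts of protein-coding transcripts, ranks among promoter peaks and covered base pairs. Python 3.11.15, pandas 2.3.3, numpy 2.4.6, scipy 1.17.1 and matplotlib 3.10.9 were used, and the assignment was tested on simulated data with planted changes.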

Additional observations from a re-analysis of the deposited data

How the results depend on the processing

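No paired analysis was possible because a condition is represented by 1 list alone. The number of marked members stayed within 1.5 times its value under every alternative. In the main setting the regulators alone stood above the synthesis genes in most lists. The strength gap between synthesis genes and the other roles pooled kept its direction in all 6 lists under all alternatives. When weaker peaks, under the median score of the pooled lists, were left out it was 13.7 points in Q7SST, 11.3 in Q111SST, 15.9 under cyproheptadine, 5.66 under loxapine, 16.0 under DKI and 19.2 under meclizine. Ranked among promoter peaks it was 19.1, 15.2, 20.5, 8.61, 18.6 and 26.5 points. Members past 10 points numbered 8, 20, 8, 22 and 7 in Q7SST, cyproheptadine, loxapine, DKI and meclizine under that score threshold, or 24.2%, 62.5%, 25%, 68.8% and 20.6% of members against 38.0%, 53.2%, 37.0%, 57.3% and 29.1% of coding genes. Both settings rank fewer peaks, which stretches the scale. Ranked among promoter peaks they numbered 12 in Q7SST, 16 under cyproheptadine, 14 under loxapine and 8 under meclizine, or 35.3%, 47.1%, 41.2% and 23.5% against 40.3%, 43.3%, 35.9% and 28.8%. In equal-size lists they numbered 9 under loxapine, or 26.5% against 29.2%. Members with a 1.5-fold width change numbered 1 under meclizine when peaks within 1 kb were merged (2.94% of members and 7.42% of coding genes), 2 in Q7SST (6.45% and 8.39%) and 2 under cyproheptadine (6.67% and 9.93%) when the peak had to cover the start, and 2 in Q7SST (5.88% and 9.72%) and 2 under loxapine (5.88% and 7.02%) by covered base pairs. Hmgcs1 in Q7SST turned to 1.11 when peaks were merged. Synthesis genes with a shortened downstream edge, an alternative set added after seeing the data, numbered 2 of 16 under DKI at 1000 bp in place of 500 bp (3.15% of coding genes), and under meclizine 3 at 250 bp (14.7%) and 0 at 1000 bp (0.817%). The causes of these changes were not tested. The lack of read counts limits every value: weak marks below the lowest score cannot be seen.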
